A study of Mus musculus with 12 samples.

Results

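Transcripts of cellular iron uptake, storage, export and sensing were followed in C2C12 myotubes exposed to the mitochondrial uncoupler BAM15. The 9 members were chosen by name from the 15113 genes of the count table, namely Tfrc, Steap3 and Slc11a2 for uptake, Fth1, Ftl1 and Ncoa4 for storage, Slc40a1 for export, and Ireb2 and Aco1 for sensing. All 9 were listed in the table and all 9 passed the filter on low counts, which kept 12730 genes. C2C12 cells are mouse myoblasts of an established line and form multinucleated myotubes once serum is lowered, here from 10% fetal bovine serum to 2% horse serum. Fully differentiated myotubes of passages 2 to 5 received 20 μM BAM15 dissolved in DMSO or vehicle for 16 h, and 6 libraries were sequenced per condition. The passages are those of the sample records, whereas the methods of the study name later passages and longer reads than the records do. BAM15 carries protons across the mitochondrial inner membrane and so uncouples respiration from ATP synthesis. The comparison asks how this treatment altered the transcripts of iron metabolism at 1 dose and 1 time. The sample records do not say whether libraries came from separate cultures, so that p-values measure only the spread between these libraries.

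Cells take up transferrin-bound iron through the transferrin receptor, reduce it in endosomes, and pass it to the cytosol through a divalent metal transporter. Iron that is not used is held inside ferritin, a hollow shell of heavy and light chains, and surplus iron leaves through ferroportin, the only known cellular iron exporter. Muscle needs iron for myoglobin and for the heme and iron-sulfur clusters of the respiratory chain. Much of this system is set after transcription. When iron is low, the iron regulatory proteins IRP1 and IRP2 bind hairpins called iron responsive elements (IREs), which blocks translation when the hairpin lies in the 5′ untranslated region (UTR) and protects the transcript when hairpins lie in the 3′ UTR. A count of reads measures transcript abundance, so translation of ferritin or ferroportin was not measured here.

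The IREs are shown because the iron regulatory proteins act through them. The annotated UTRs (GENCODE M21, GRCm38) were searched on the transcript's own strand for a C, 5 bases, the letters CAGTGN and 5 more bases, where at least 4 of the 5 bases on either side of the loop can pair. Matches were found in 5 of the 9 members. Fth1 (chr19:9982731-9982760, plus strand), Ftl1 (chr7:45459779-45459808, minus strand) and Slc40a1 (chr1:45925465-45925494, minus strand) each held 1 in the 5′ UTR. Tfrc held 4 in the 3′ UTR on the plus strand, at chr16:32631218-32631247, chr16:32631597-32631626, chr16:32631662-32631691 and chr16:32631709-32631738. Slc11a2 held 1 in the 3′ UTR of 1 of its 3 annotated coding transcripts with such a region (chr15:100395153-100395182, minus strand), with 4 of 5 stem bases paired, whereas all others paired at 5 of 5. In the sequences below, written 5′ to 3′ as DNA, capitals mark the bulged C and the 6 loop bases.
Fth1 5′ UTR: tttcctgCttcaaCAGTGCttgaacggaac
Ftl1 5′ UTR: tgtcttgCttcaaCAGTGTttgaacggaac
Slc40a1 5′ UTR: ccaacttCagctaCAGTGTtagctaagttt
Tfrc 3′ UTR site 1: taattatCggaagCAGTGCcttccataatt
Tfrc 3′ UTR site 2: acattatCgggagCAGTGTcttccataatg
Tfrc 3′ UTR site 3: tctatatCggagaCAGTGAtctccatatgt
Tfrc 3′ UTR site 4: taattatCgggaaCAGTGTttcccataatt
Slc11a2 3′ UTR: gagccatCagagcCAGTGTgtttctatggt

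The same letters occurred in the 5′ UTR of 0.991% of 21200 genes and in the 3′ UTR of 4.76% of 21193 genes, so that a match by itself is a description of sequence. Neither Ireb2, Aco1, Ncoa4 nor Steap3 had a match in an annotated UTR. Not every annotated transcript carried the element, which was present in 4 of 5 coding transcripts with a 5′ UTR for Fth1, 1 of 2 for Ftl1 and 1 of 4 for Slc40a1, and in 1 of 2 with a 3′ UTR for Tfrc.

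Libraries were made with QuantSeq, which reads the 3′ end of polyadenylated transcripts, so that a count does not scale with transcript length and levels may be compared between genes as counts in CPM, which are scaled to the same total in each library. Such comparisons assume that reads can be assigned to 1 gene, which is uncertain for Ftl1. They also assume that the 3′ ends in use were annotated for counting, which was not checked for any member. Reads counted on genes ranged from 13983725 to 18751780 per BAM15 library and from 15299135 to 18866728 per vehicle library. Within the BAM15 condition the libraries numbered 1 to 3 stood apart from those numbered 4 to 6. The second principal component, which held 16.0% of the variance, ran from −39.3 to −20.9 in the former and from 8.37 to 43.0 in the latter. Between these sets of BAM15 libraries 38.8% of all genes differed at an adjusted p below 0.05, against 0% (0 genes) between the same numbers of the vehicle condition, where 696 genes had an unadjusted p below 0.05 (edgeR). The labels give no reason for the split, and results of the members are given with and within each set where they differ. Changes of the other iron genes are given over all libraries, with values of each set for only some of them. Markers of other cells moved with the treatment. All 12 transcripts of dividing cells fell, with a summed level of 2965 to 3734 normalized counts in BAM15 libraries and 7953 to 8825 in vehicle libraries, Mki67 among them at 210.3 ± 46.1 against 734 ± 73.2 (SD, n = 6 each). Summed myotube markers covered 528229 to 679493 and 574621 to 637990 normalized counts in BAM15 and vehicle libraries. Of these 20 genes 2 rose, Acta1 (log2 fold change 0.46, edgeR adjusted p = 3.96e-05) and Myog (0.37, edgeR adjusted p = 0.00361), and 4 fell, Mymx (−0.38, edgeR adjusted p = 2.39e-05), Mymk (−0.27, edgeR adjusted p = 0.00492), Mylpf (−0.23, edgeR adjusted p = 0.00874) and Ckm (−0.17, edgeR adjusted p = 0.00540), whereas Myh3 had a log2 fold change of 0.08 (edgeR adjusted p = 0.483). The 11 listed genes of undifferentiated myoblasts summed to 3722 to 5918 normalized counts against 5969 to 7225, but they did not move together, since Pax7, Myod1, Sdc4 and Id2 fell, Myf5 rose (log2 fold change 1.69, edgeR adjusted p = 0.00144) and 6 were not called. Fibroblast markers (4 of 6 listed) summed to 169 to 207 against 308 to 398. Of the 3 fibroblast markers tested Cd248 alone was called, lower after BAM15 (edgeR adjusted p = 1.91e-08), while Pdgfra had a log2 fold change of −0.34 and Pi16 one of 0.40 (edgeR adjusted p = 0.150 and 0.119). Of 6 macrophage markers the table listed 4, summing to 65.4 to 95.1 normalized counts in BAM15 and 21.3 to 38.2 in vehicle libraries. Most of the BAM15 sum was Cd68, at 64.2 ± 8.53 against 13.7 ± 3.84 normalized counts (SD, n = 6 each). The other listed macrophage markers, Csf1r, Lyz2 and Itgam, held at most 17, 7 and 12 raw counts and were not tested. Of 6 adipocyte markers the table listed 2, Pparg and Fabp4, summing to 47.5 to 207 against 4.12 to 18.1, with Fabp4 at 0 to 3 counts. Pparg rose (edgeR adjusted p = 1.50e-04), with 206 normalized counts in BAM15 replicate 5 alone. The other BAM15 libraries held 46.5 to 67.7 and vehicle libraries 3.09 to 17.6. Except Mki67, Acta1 and Myh3, these markers are named because they were called or belong to a short list, after their values were seen. The part of any of these shifts in the results on iron genes was not tested. In such lysates fewer cells of a type and less RNA per cell cannot be told apart.

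BAM15 raised 3 of the 9 iron genes, the ferritin heavy chain Fth1, the ferritin light chain Ftl1 and the iron exporter ferroportin, Slc40a1. These 3 had an adjusted p below 0.01 in the quasi-likelihood test of edgeR (Benjamini-Hochberg adjustment over all 12730 genes), a threshold that 42.3% of genes passed, 22.0% as higher and 20.3% as lower. No member passed it as lower. At an unadjusted p below 0.05 the lower members were Ireb2 and Steap3, and DESeq2 and limma-voom gave the same counts of 3 higher and 0 lower at the adjusted threshold and 3 and 2 at the unadjusted one. By edgeR p Steap3 ranked 6335 and Ireb2 6843 of the 12730 genes, so that an unadjusted p below 0.05 was common among all genes. In these 3 genes every BAM15 library lay above every vehicle library, as in 17.1% of all genes, while 17.0% lay wholly lower and 34.2% did not overlap in either direction. Of the 9 members, 2 (Ftl1 and Slc40a1) also passed the thresholds taken from the study's methods, an adjusted p below 0.01, a mean above 50 normalized counts and a change over 2-fold, which 7.28% of genes passed, 3.70% as higher and 3.58% as lower. The median log2 fold change was 0.09 over the 9 members and 0.02 over all genes tested.

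**Figure D1:**
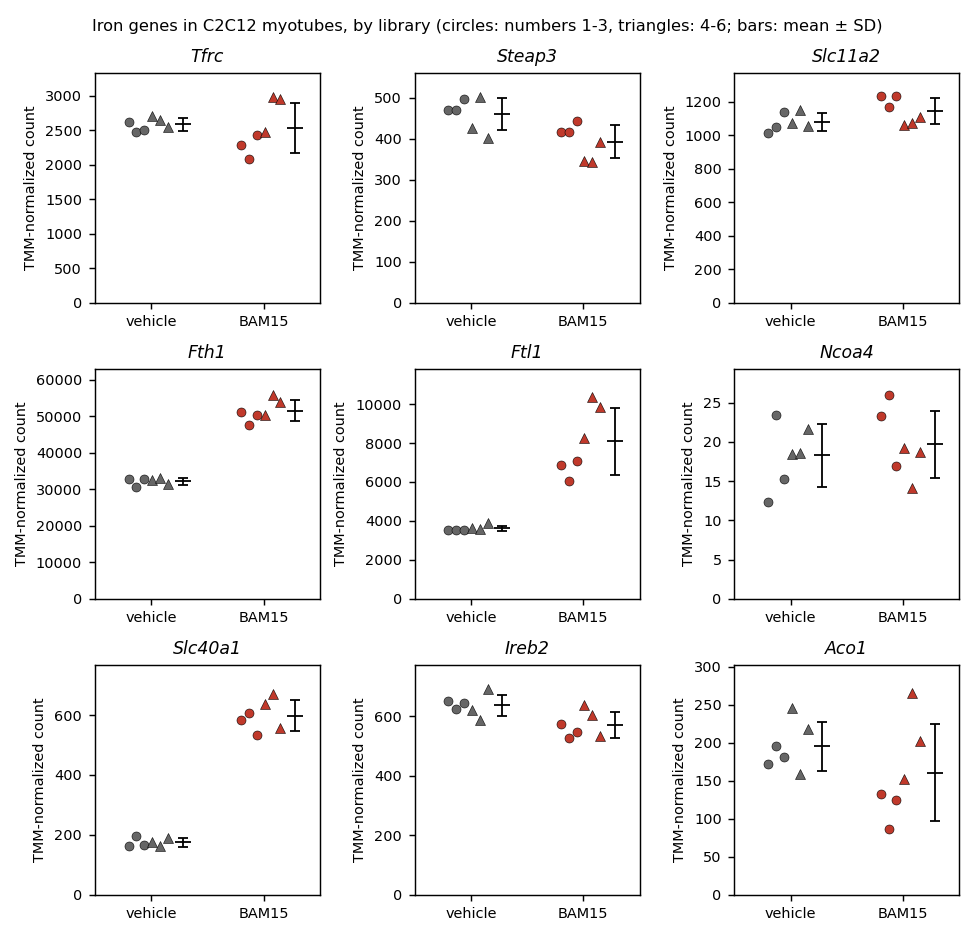
TMM-normalized counts (y axis) of the 9 iron genes in each library, grouped as vehicle and BAM15 (x axis), with circles for library numbers 1 to 3, triangles for 4 to 6, and bars for the mean ± SD of 6 libraries. BAM15 points lie wholly above vehicle points for Fth1, Ftl1 and Slc40a1, and the conditions overlap in the other 6 panels.

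Ferroportin showed the largest change of the 9. Slc40a1 (ENSMUSG00000025993, chr1:45908068-45926523, GRCm38) had 161, 171 and 197 normalized counts as its lowest, median and highest vehicle value and 534, 595 and 671 after BAM15. The lowest BAM15 library thus exceeded the highest vehicle library by a wide margin. Means were 598 ± 50.7 and 175 ± 15.2 (SD, n = 6 each), a 3.41-fold increase (log2 fold change 1.77, SE 0.08, 95% interval 1.60 to 1.94, edgeR adjusted p = 9.54e-11). Unlike the light chain of ferritin, this gene rose by nearly the same amount in both sets of libraries, with a log2 fold change of 1.72 in numbers 1 to 3 and 1.82 in numbers 4 to 6. The difference of 0.10 between these had an edgeR adjusted p of 0.722. Among all 15113 genes ordered by level, ferroportin moved from rank 7972 in vehicle to rank 4544 in BAM15 myotubes. No window of 50 bases in the last 400 bases of its transcript was found in another gene.

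Ferritin heavy chain, which carries the ferroxidase activity that oxidizes iron for deposition in the shell, was by far the most abundant member. Fth1 (ENSMUSG00000024661, chr19:9980598-9985098) was read at 30666, 32651 and 32945 normalized counts (lowest, median and highest) in vehicle libraries and at 47637, 50718 and 55888 in BAM15 libraries. The conditions did not overlap, and the values of each condition lay close together. Its mean rose 1.60-fold from 32219.6 ± 940 to 51533 ± 2945 (SD, n = 6 each; log2 fold change 0.68, SE 0.05, 95% interval 0.56 to 0.79, edgeR adjusted p = 5.18e-08). In CPM this was 1904 against 3046, which brought Fth1 from rank 44 to rank 18 of 15113 genes. The increase was 0.63 on the log2 scale in library numbers 1 to 3 and 0.73 in numbers 4 to 6 (edgeR adjusted p of the difference 0.503). Of the 50-base windows near its 3′ end 8.67% also occur in 1 annotated pseudogene, Gm6977, which was read at 0 to 54 counts per library.

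Ferritin light chain, which lacks ferroxidase activity and promotes formation of the iron core, rose further than the heavy chain. Vehicle libraries held 3511, 3568 and 3894 normalized counts of Ftl1 (ENSMUSG00000050708, chr7:45457944-45459884) as lowest, median and highest value, and BAM15 libraries held 6068, 7686 and 10375. Every BAM15 library was above the vehicle range, but the BAM15 values were themselves spread over 2 levels, 6068 to 7089 in numbers 1 to 3 and 8282 to 10375 in numbers 4 to 6. The means were 8085 ± 1726 and 3618 ± 145 (SD, n = 6 each), a 2.23-fold increase (log2 fold change 1.16, SE 0.11, 95% interval 0.92 to 1.40, edgeR adjusted p = 6.82e-07). With library numbers 1 to 3 alone the log2 fold change was 0.92, which does not reach 2-fold, so that only ferroportin then passed all 3 thresholds. Counts of Ftl1 carry a further uncertainty, because 73.9% of the 50-base windows in its last 400 bases occur in 15 other annotated genes, mostly ferritin light chain pseudogenes. Looked up by identifier, 1 of these 15 was in the count table, Ftl1-ps1 with 0 to 7 counts per library, and how reads that match several copies were counted is not given in the sources used here. An exon of Gm22133 overlaps the end of Ftl1 by 109 bases on the same strand, and Gm10252 overlaps it by 19 bases on the opposite one.

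Together the ferritin chains made up 0.346% ± 0.0416 of all counted reads after BAM15 and 0.216% ± 0.00710 with vehicle (SD, n = 6 each), with ranges of 0.299% to 0.403% and 0.204% to 0.225% that did not overlap. The balance between the chains changed as well. The ratio of Fth1 to Ftl1 counts within a library, which needs no scaling between libraries, was 8.09 to 9.36 (median 9.03) with vehicle and 5.39 to 7.85 (median 6.59) with BAM15. It was 1.37-fold lower after BAM15 (difference in mean log2 ratio −0.46, p = 0.00216 by an exact two-sided permutation test, the smallest value that test can give, and 0.00325 after adjustment over the 3 ratios examined). Within BAM15 the ratio was 7.11 to 7.85 in libraries 1 to 3 and 5.39 to 6.07 in libraries 4 to 6, both below the vehicle range. Adding the counts of Ftl1-ps1 to the light chain and of Gm6977 to the heavy chain left the difference at −0.46. These copies held at most 0.0907% of the counts of their parent gene, so that the addition could hardly move it. Copies of Ftl1 without counts cannot be examined in this way, and the level of the ratio remains uncertain.

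NCOA4, the cargo receptor that delivers ferritin to autophagosomes so that its iron can be released, was barely detected. Ncoa4 (ENSMUSG00000056234, chr14:32159865-32179855) had only 14 to 24 raw counts per library, the lowest level of the 9 members at 1.08 CPM with vehicle and 1.16 CPM with BAM15. Normalized counts were 18.3 ± 4.06 and 19.7 ± 4.30 (SD, n = 6 each), with 1 BAM15 library above all vehicle libraries and none below them. A log2 fold change of 0.11 with a 95% interval of −0.34 to 0.55 (edgeR adjusted p = 0.687) leaves changes of either direction within the precision of these counts.

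No change in the transferrin receptor, which imports transferrin-bound iron, was detected over all libraries, although its BAM15 values were the more scattered. Tfrc (ENSMUSG00000022797, chr16:32608920-32632794) was read at 2470, 2586 and 2709 normalized counts (lowest, median and highest) with vehicle and at 2079, 2454 and 2978 with BAM15. Of the BAM15 libraries 3 lay below the vehicle range and 2 above it. Means were 2584 ± 91.5 and 2533 ± 362 (SD, n = 6 each), with a log2 fold change of −0.03 (SE 0.08, 95% interval −0.20 to 0.14, edgeR adjusted p = 0.786). The libraries below the range were numbers 1 to 3, at 2079 to 2437, and those numbered 4 to 6 held 2471 to 2978. Whether numbers 1 to 3 passed the threshold of 0.01 depended on the vehicle libraries they were set against. The log2 fold change was −0.16 against vehicle numbers 1 to 3 (edgeR adjusted p = 0.0906 in the fit of all 12 libraries and 0.0345 in these 6 alone) and −0.19 against all 6 vehicle libraries (edgeR adjusted p = 0.00744), a comparison chosen after seeing the data. For numbers 4 to 6 these values were 0.09 (edgeR adjusted p = 0.350 in the fit of all libraries) and 0.12 (edgeR adjusted p = 0.137). Leaving out BAM15 replicate 2 turned the log2 fold change to 0.0227.

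Set against the heavy chain of ferritin, the receptor was lower in every BAM15 library. Tfrc counts were 0.0761 to 0.0835 of Fth1 counts with vehicle and 0.0436 to 0.0547 with BAM15, and the ranges did not overlap. The ratio was 1.64-fold lower after BAM15 (difference in mean log2 ratio −0.72, p = 0.00216 by the exact two-sided permutation test, adjusted p = 0.00325). Since Tfrc itself did not pass the test, the size of this difference is close to that of the rise in Fth1. Both sets of BAM15 libraries were below the vehicle range, with ratios of 0.0436 to 0.0484 in numbers 1 to 3 and 0.0492 to 0.0547 in numbers 4 to 6.

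**Figure D2:**
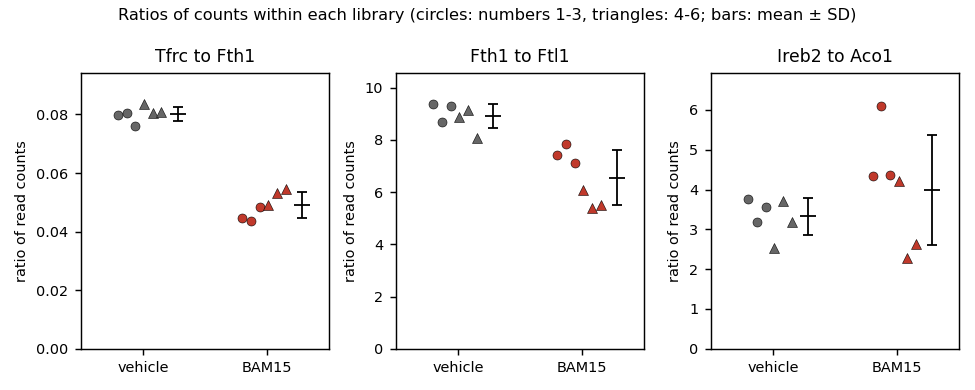
Ratios of read counts within each library (y axes) for Tfrc to Fth1, Fth1 to Ftl1 and Ireb2 to Aco1, by condition (x axis), with circles for library numbers 1 to 3, triangles for 4 to 6 and bars for the mean ± SD of 6 libraries. The first ratio falls from 0.0761 to 0.0835 with vehicle to 0.0436 to 0.0547 with BAM15 and the second from 8.09 to 9.36 to 5.39 to 7.85, and the third overlaps between conditions.

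Steap3, the endosomal ferrireductase that reduces iron released from transferrin, had lower mean counts after BAM15 without passing the threshold. Vehicle libraries held 402 to 501 normalized counts of Steap3 (ENSMUSG00000026389, chr1:120190757-120272705) and BAM15 libraries 343 to 443. All 6 BAM15 libraries lay below the vehicle mean, yet only 3 lay below every vehicle library. Means were 461 ± 39.4 and 393 ± 40.9 (SD, n = 6 each), with a log2 fold change of −0.23 (SE 0.08, 95% interval −0.41 to −0.05, edgeR adjusted p = 0.0286). For numbers 4 to 6 of both conditions Steap3 had a log2 fold change of −0.30 (edgeR adjusted p = 0.0153 in the fit of all 12 libraries, and −0.31 with 0.0453 in these 6 alone). Against all vehicle libraries, a comparison chosen after seeing the data, BAM15 numbers 4 to 6 gave −0.35 (edgeR adjusted p = 0.00357) and numbers 1 to 3 gave −0.11 (edgeR adjusted p = 0.235).

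The divalent metal transporter DMT1, which moves reduced iron out of the endosome, is encoded by Slc11a2 (ENSMUSG00000023030, chr15:100387898-100425072). Its normalized counts ran from 1013 to 1149.55 with vehicle and from 1059 to 1235 with BAM15, where 3 libraries exceeded the vehicle range. The log2 fold change was 0.09 (SE 0.06, 95% interval −0.04 to 0.21, edgeR adjusted p = 0.218), from means of 1080.2 ± 53.9 and 1147 ± 76.9 (SD, n = 6 each). The BAM15 libraries above the vehicle range were numbers 1 to 3, and in numbers 4 to 6 the log2 fold change was −0.01.

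Of the iron regulatory proteins, neither transcript passed the threshold. Ireb2 (ENSMUSG00000032293, chr9:54863789-54912530) encodes IRP2, which is degraded when iron is plentiful. It was read at 589 to 693 normalized counts with vehicle and at 527 to 639 with BAM15, and 4 BAM15 libraries lay below the vehicle range. Means of 637 ± 35.1 and 570.1 ± 43.9 (SD, n = 6 each) gave a log2 fold change of −0.16 (SE 0.06, 95% interval −0.30 to −0.02, edgeR adjusted p = 0.0478). Aco1 (ENSMUSG00000028405, chr4:40143081-40198338) encodes IRP1, which is the cytosolic aconitase when it holds an iron-sulfur cluster and binds RNA when it has lost it. Its lowest, median and highest normalized counts were 159, 188 and 246 with vehicle and 86.4, 142 and 266 with BAM15. Here 4 BAM15 libraries were below the vehicle range and 1 above it, the widest relative scatter among the members. The log2 fold change was −0.28 (SE 0.22, 95% interval −0.75 to 0.19, edgeR adjusted p = 0.299), from means of 195 ± 32.0 and 160 ± 63.9 (SD, n = 6 each).

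As with Tfrc, the values of Aco1 after BAM15 followed the library numbers. They were 86.4 to 132 in numbers 1 to 3 and 152 to 266 in numbers 4 to 6. For numbers 1 to 3 of both conditions Aco1 had a log2 fold change of −0.67, with an edgeR adjusted p of 0.0145 in the fit of all 12 libraries and 7.78e-04 in these 6 alone. Against all vehicle libraries, a comparison chosen after seeing the data, BAM15 numbers 1 to 3 gave −0.76 (edgeR adjusted p = 2.59e-04) and numbers 4 to 6 gave 0.09 (edgeR adjusted p = 0.666). The ratio of Ireb2 to Aco1 counts was 2.52 to 3.77 with vehicle and 2.27 to 6.1 with BAM15, overlapping, with a difference in mean log2 ratio of 0.20 (p = 0.418 by the exact two-sided permutation test, adjusted p = 0.418).

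**Figure D3:**
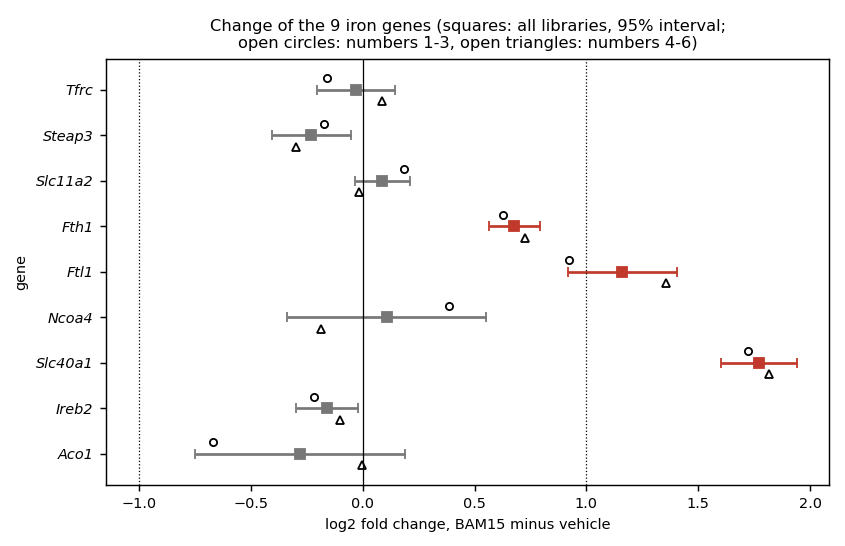
Log2 fold change of each iron gene, BAM15 minus vehicle (x axis), with squares and bars for the estimate and 95% interval over all 12 libraries, red where the adjusted p was below 0.01, open circles for library numbers 1 to 3 and open triangles for numbers 4 to 6. Dotted lines mark a 2-fold change, which Slc40a1 (1.77) and Ftl1 (1.16) exceed, and the open symbols lie farthest apart for Aco1 (−0.67 and −0.00).

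Whether the response itself differed between library numbers was tested with an interaction term. Ftl1 was the single member in which it did at an adjusted p below 0.05, with log2 fold changes of 0.92 and 1.36 and a difference of 0.43 (edgeR adjusted p = 0.0488). Of all genes tested 2.66% passed this test. The call was narrow, since limma-voom gave an adjusted p of 0.0540, and it was lost when any 1 of BAM15 replicates 1, 2, 3, 5 and 6 or any 1 vehicle replicate was left out, with 0 members called in each case. Without BAM15 replicate 4, 3 members were called, Ftl1 (0.52, edgeR adjusted p = 0.00110), Tfrc (0.33, edgeR adjusted p = 0.0188) and Aco1 (0.85, edgeR adjusted p = 0.0257). With all libraries the difference was 0.25 for Tfrc (edgeR adjusted p = 0.160) and 0.67 for Aco1 (edgeR adjusted p = 0.161). Among the BAM15 libraries alone, numbers 4 to 6 exceeded numbers 1 to 3 in the same 3 genes, by 0.31 for Tfrc (edgeR adjusted p = 0.00487), 0.51 for Ftl1 (edgeR adjusted p = 2.09e-04) and 0.85 for Aco1 (edgeR adjusted p = 0.00524) on the log2 scale. Their share, 3 of 9 members, is near the background of 38.8%. Summed myotube markers differed between the same sets, at 631671 to 679493 normalized counts in numbers 1 to 3 and 528229 to 575153 in numbers 4 to 6, and their part in these differences was not tested.

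In vehicle myotubes the levels of the members fell in a steep order, with Fth1 at 1904 CPM, Ftl1 at 214, Tfrc at 153, Slc11a2 at 63.8, Ireb2 at 37.6, Steap3 at 27.2, Aco1 at 11.5, Slc40a1 at 10.4 and Ncoa4 at 1.08. Of the neighbours in that order only Aco1 and Slc40a1 overlapped between libraries. The level of Ftl1 is uncertain, since 73.9% of the 50-base windows near its 3′ end occur in other genes, against 8.67% for Fth1. After BAM15 ferroportin stood at 35.3 CPM, beside Ireb2 at 33.7 CPM and above Steap3 at 23.2 and Aco1 at 9.48 CPM, and the ranges of Slc40a1 and Ireb2 overlapped. The heavy chain remained the most abundant member, at 3046 CPM, followed by the light chain at 478 CPM and the transferrin receptor at 149.7 CPM.

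For each member the gene with the most similar profile was sought by Pearson correlation of log2 CPM over the 12 libraries. This is a description without a test, since the points share libraries and the conditions stand apart for the genes that rose. The profile closest to Ftl1 was that of Cpox, an enzyme of heme synthesis (r = 0.998), which likewise was higher in BAM15 numbers 4 to 6 (1686 to 2215 normalized counts) than in numbers 1 to 3 (925 to 1236). Fth1 lay closest to Herpud1, a gene of endoplasmic reticulum-associated degradation (r = 0.996), and Slc40a1 to Casp4, an inflammatory caspase (r = 0.995). For the members that did not pass the test the closest genes were Cdc23 for Tfrc (r = 0.965), Gmfb for Steap3 (r = 0.965), Fndc10 for Slc11a2 (r = 0.923), Ccdc43 for Ireb2 (r = 0.952), Prkd3 for Aco1 (r = 0.981) and Gm42922 for Ncoa4 (r = 0.861).

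Around these members stand other genes of iron metabolism, of which 91 were set out in 6 lists, 80 were in the table and 77 were tested. At an adjusted p below 0.01, 27 were higher, 6 were lower and 44 were not called, against 22.0% higher and 20.3% lower of all genes. The 3 thresholds were passed by 7, all of them higher, against 3.70% higher and 3.58% lower of all genes. The median log2 fold change was 0.18, against 0.02 over all genes. The lists, and Scara5 within them, were chosen with earlier results of these libraries known, so that neither is independent evidence of a direction.

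Of the 9 tested genes for other routes of uptake 5 rose, none fell and 4 were not called, with a median log2 fold change of 0.52. Scara5, a scavenger receptor that can take up ferritin, was nearly absent with vehicle, at 4.25 to 9.04 normalized counts, and held 225 to 260 after BAM15, a 34.1-fold increase (log2 fold change 5.09, SE 0.14, edgeR adjusted p = 3.52e-13). The metalloreductase Steap1 rose from 184 ± 22.6 to 976 ± 73.1 normalized counts (SD, n = 6 each; log2 fold change 2.40, edgeR adjusted p = 7.93e-12) and its relative Steap2 by 0.50 on the log2 scale (edgeR adjusted p = 1.97e-04), in contrast to Steap3. Hfe, the hemochromatosis protein that binds the transferrin receptor, rose from 6.59 ± 2.91 to 52.4 ± 11.6 normalized counts (SD, n = 6 each; log2 fold change 2.98, edgeR adjusted p = 1.51e-07) but stayed under the mean of 50 that the 3 thresholds require.

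Genes of intracellular delivery, storage and mitochondrial import were mixed, with 3 higher, 1 lower and 5 not called of 9 and a median of 0.06. Mitoferrin-1, Slc25a37, which carries iron into mitochondria, rose without overlap between conditions, from 934 to 1155 normalized counts with vehicle to 3611 to 5554 with BAM15 (log2 fold change 2.14, edgeR adjusted p = 1.76e-10). Mitoferrin-2, Slc25a28, rose by 0.76 (edgeR adjusted p = 0.00440) with overlapping conditions, at 105 to 140.4 against 129 to 327 normalized counts. It held 129 to 195 in BAM15 numbers 1 to 3 and 189 to 327 in numbers 4 to 6. The iron chaperone Pcbp2 rose by 0.26 on the log2 scale (edgeR adjusted p = 0.00148), with exons of Map3k12 over its 3′ ends on the opposite strand. Myoglobin, Mb, the oxygen-binding heme protein of muscle, fell by 0.34 on the log2 scale (edgeR adjusted p = 0.00500), from 8641 ± 321 to 6806 ± 1130 normalized counts (SD, n = 6 each), and Gm49540 lies over its end on the opposite strand. Mb was at 8080 to 8891 with vehicle, 7074 to 8417 in BAM15 numbers 1 to 3 and 5533 to 6180.5 in numbers 4 to 6.

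Among 7 tested genes of export and hepcidin control other than ferroportin, 4 were higher, 1 lower and 2 not called (median 0.22). Neo1, encoding the hemojuvelin partner neogenin, rose by 0.71 (edgeR adjusted p = 2.73e-08), and the BMP pathway genes Smad4 and Smad7 by 0.63 (edgeR adjusted p = 2.92e-07) and 0.68 (edgeR adjusted p = 2.60e-04) on the log2 scale. Hemojuvelin itself, Hjv, a co-receptor abundant in muscle, fell from 6624 ± 486 to 4458 ± 422 normalized counts (SD, n = 6 each; log2 fold change −0.57, edgeR adjusted p = 6.20e-06). Of 6 tested genes that control the IRPs or carry known IREs 1 rose, 1 fell and 4 were not called (median 0.08). Fbxl5, the iron-sensing ubiquitin ligase subunit that marks IRP2 for degradation, rose from 423 ± 30.4 to 507 ± 50.3 normalized counts (SD, n = 6 each; log2 fold change 0.26, edgeR adjusted p = 0.00916), and Pfn2 fell by 0.78 on the log2 scale (edgeR adjusted p = 0.00913). Pfn2 was at 45.2 to 70.4 with vehicle, 20.5 to 31.1 in BAM15 numbers 1 to 3 and 33.1 to 57.2 in numbers 4 to 6.

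In the heme list 5 of 20 tested genes rose, 2 fell and 13 were not called (median 0.11), a count of rises close to the 22.0% of all genes. Hmox1, which opens heme and frees its iron, rose from 157 to 205 normalized counts with vehicle to 547 to 932 with BAM15 (log2 fold change 2.05, edgeR adjusted p = 6.62e-09). Cpox rose by 2.10 (edgeR adjusted p = 1.13e-06), and of its 50-base windows 7.12% occur in other genes. The 2 biliverdin reductase genes moved apart, with Blvrb higher by 0.67 (edgeR adjusted p = 2.15e-06) and Blvra at a log2 fold change of −0.46 (edgeR adjusted p = 3.49e-04). Of 26 genes for iron-sulfur cluster assembly 9 rose, 1 fell and 16 were not called (median 0.11). Hspa9, the mitochondrial chaperone mortalin that also serves general protein import, rose from 5475 ± 198 to 13955 ± 1147 normalized counts (SD, n = 6 each; log2 fold change 1.35, edgeR adjusted p = 8.17e-11). Its co-chaperone Hscb, named after its values were seen because it was the 7th gene past the 3 thresholds, rose by 1.13 (edgeR adjusted p = 1.67e-04), and the cytosolic assembly factors Ciapin1 and Ndor1 by 0.61 (edgeR adjusted p = 3.34e-07) and 0.74 (edgeR adjusted p = 7.02e-06). Hscb was at 92.5 to 126 with vehicle, 152 to 193 in BAM15 numbers 1 to 3 and 247 to 372 in numbers 4 to 6. Ferredoxin-2, Fdx2, rose by 0.44 (edgeR adjusted p = 1.35e-05), although all windows near its end also belong to annotated genes on the same strand, as do 50% of those of Ndor1.

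**Figure D4:**
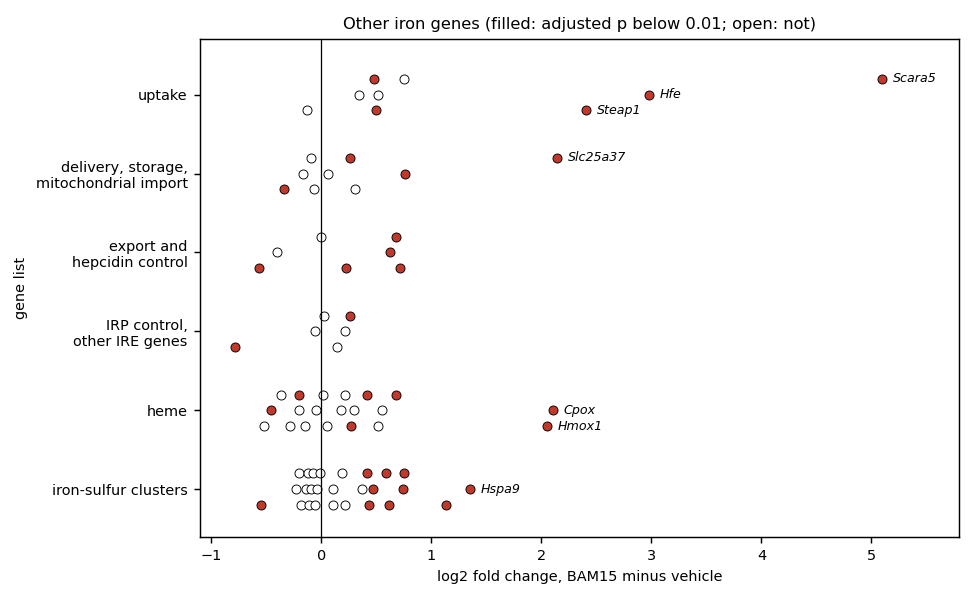
Log2 fold change, BAM15 minus vehicle (x axis), of the 77 tested other iron genes in 6 lists (y axis), 1 point per gene, filled red where the adjusted p was below 0.01. Points are shifted within a row for legibility, and 6 of the 7 named points lie beyond 2, led by Scara5 at 5.09, with Hspa9 at 1.35.

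The sites shown above were also set beside the response of every tested gene with the same letters. Of 138 tested genes with a match in the 5′ UTR, 18.1% were higher and 26.8% lower at an adjusted p below 0.01, with a median log2 fold change of −0.02. Of 727 with a match in the 3′ UTR, 21.7% were higher and 21.3% lower, with a median of 0.00. Over all genes tested these shares were 22.0% and 20.3%. The 3 members with a 5′ UTR element rose in transcript abundance, and the part of the element in this was not tested.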

How the data were processed

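RNA of C2C12 myotubes was sequenced by the authors from 6 BAM15 and 6 vehicle libraries (3′ QuantSeq, forward reads of 50 bp per the labels). The deposited counts give the reads assigned to each Ensembl gene and are not normalized, and the strand used for counting is not given in the sources used here. The authors also deposited normalized signal made with DESeq2 (version 1.22.2 in the submitters' processing notes, which name GRCm38 and mm10). This normalized signal, which holds counts divided by size factors of 0.836 to 1.07, served 1 alternative. Further columns of these files, 11 in number, belong to no sample described here and were not used.

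Counts were analysed in R 4.3.3 with edgeR 4.0.16. filterByExpr removed 2383 genes, TMM factors were 0.932 to 1.04, and a robust quasi-likelihood fit with condition as its only term was tested for 12730 genes with Benjamini-Hochberg adjustment. Normalized counts are counts scaled by TMM to a common library size. Within a condition no library was a copy of another (chi-square per gene between libraries 5.00 to 85.2). Ratios were compared by exact two-sided permutation of library labels. UTR elements, shared 50-base windows and positions came from GENCODE M21, which also supplied 2260 of the 2293 symbols the table lacks. Alternatives were DESeq2 1.42.0, limma-voom and limma on log2 of the deposited values plus 1 (limma 3.58.1), other scalings and filters, blocks for library number, subsets of libraries and each library left out. The members and all gene lists were chosen with earlier results of these data known. Named are the 9 members, in each list of other iron genes up to 4 with the lowest p at an adjusted p below 0.01, Scara5 and Hmox1, the closest profile to each member, listed ferritin copies, and Mki67, Acta1 and Myh3.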

Additional observations from a re-analysis of the deposited data

Results flagged for a closer look

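Single libraries stood apart from the other 5 of their condition in 4 of 74 groups of values examined, by Dixon's criterion for 6 values at the 95% level, which chance alone passes in about 1 of 20 groups. For Ftl1 the highest vehicle library, replicate 6, held 3894 normalized counts and the next 3644, a gap of 0.652 of the range. For Cpox the same library held 430.3 and the next 359 normalized counts (0.673). For Neo1 the highest BAM15 library, replicate 6, held 1493 and the next 1364 normalized counts (0.678). For Fdx2 the highest BAM15 library held 767 and the next 716 normalized counts (0.665).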

How the results depend on the processing

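Fth1, Ftl1 and Slc40a1 kept direction and call in 25 of 25 alternatives, with log2 fold changes of 0.62 to 0.72, 0.92 to 1.35 and 1.71 to 1.81, and also without BAM15 numbers 4 to 6 (0.63, 0.88 and 1.71) or 1 to 3 (0.73, 1.39 and 1.83), subsets chosen after seeing the data. The count of members past all 3 thresholds, 2 with all libraries, was 1 (Slc40a1) with library numbers 1 to 3 only, 1 without BAM15 numbers 4 to 6 and 0 at a log2 fold change over 2, where 189 genes passed in place of 927. Members at an adjusted p below 0.01, 3 with all libraries, became 5 at an adjusted p below 0.05 (Ireb2 and Steap3 added). Ireb2, with an edgeR adjusted p of 0.0478, ranked 6843 of 12730 genes, so that passing 0.05 was common among all genes. Without BAM15 numbers 4 to 6, 5 members were below 0.01 (Tfrc and Aco1 added, both lower). The share of all genes below 0.01 in that subset is not given here. Members whose response differed between library numbers, 1 with all libraries, were 0 by limma-voom and 0 to 3 when single libraries were left out. Signs turned for Tfrc (0.0775 with numbers 4 to 6 only, 0.12 without BAM15 numbers 1 to 3, and −0.0802 to 0.0227 when single libraries were left out, positive without BAM15 replicate 2). With numbers 4 to 6 only they also turned for Slc11a2 (−0.0250), Ncoa4 (−0.20) and the ratio of Ireb2 to Aco1 (−0.0808). Without BAM15 numbers 1 to 3 they turned for Ncoa4 (−0.08) and Aco1 (0.09), and the cause of these turns was not tested. Ireb2 passed the threshold with limma on the deposited values (−0.22, adjusted p = 0.00991), Steap3 with library size only (−0.29, edgeR adjusted p = 0.00517) and with a block for the sets of numbers (−0.23, edgeR adjusted p = 0.00861), and Aco1 with numbers 1 to 3 only (−0.67, edgeR adjusted p = 7.78e-04).

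The library numbers were not shown to pair the conditions, since deviations of same-numbered libraries correlated at −0.07 to 0.28 and only numbers 3 and 6 correlated best with their own. With a replicate block 933 genes and 2 members passed the thresholds, 3 members and 30 other iron genes had an adjusted p below 0.01 (33 without the block), and no call on a member changed. Under the block the ratios of Tfrc to Fth1 and of Fth1 to Ftl1 had an adjusted p of 0.0469 by exact sign flips. Before adjustment both had the smallest p that this test can give with 6 pairs, so that 0.0469 reflects the number of pairs. With 14 to 24 counts per library Ncoa4 had an SE of 0.21 and Aco1 one of 0.22, the least precise of the members, and the share of Ftl1 reads that stem from its copies cannot be given from gene counts.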
